A study of Rattus norvegicus with 10 samples.

Results

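The cytochrome P450 genes outside the Cyp1 family were examined in the jejunum of rats dosed with A-998679. They were taken as every gene whose symbol in the platform annotation starts with Cyp, a family number and a letter, on probe sets that name 1 gene only, leaving out Cyp1a1, Cyp1a2, Cyp1b1, Cyp26b1 and Cyp51. This gave 49 genes on 54 probe sets, out of 13813 genes named in this way among 29559 probe sets. The probe set with the highest mean over the 10 arrays stood for each gene. Of the 49 genes, 22 belonged to Cyp2, 4 to Cyp3, 10 to Cyp4 and 13 to other families. A total of 26 genes passed the intensity filter and were tested: 12 Cyp2, 2 Cyp3, 7 Cyp4 and 5 from other families.

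All animals were male Sprague Dawley rats, dosed orally for 5 days, with 1 jejunum array per rat. The vehicle group of 3 rats received HPMC at 0.2%, in a daily volume of 10 ml per kg. A-998679, an experimental compound studied for its effect on the enzymes that clear it, was given at 30 mg/kg (2 rats), 100 mg/kg (3 rats) and 200 mg/kg (2 rats). A further 30 mg/kg rat named in the series design was not analysed here. Values are log2 intensities of single probe sets, so that a difference of 1 is a doubling. Probe sets bind with different strength, so their levels cannot be ranked as amounts of RNA between genes. P450 genes of a subfamily are close in sequence, and the share of signal from related transcripts was not tested.

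P450 enzymes are haem proteins of the endoplasmic reticulum or mitochondrion that insert an oxygen atom into their substrate, with electrons from P450 reductase (Por) or from ferredoxin. Cyp2 and Cyp3 enzymes oxidise drugs, steroids and arachidonic acid, Cyp4 enzymes hydroxylate the end of fatty acid and leukotriene chains, and most other families act on sterols, steroid hormones and vitamins. In the small intestine P450s are known chiefly from the absorptive cells of the villus, where they meet swallowed compounds before the liver does.

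The arrays were close in scale, with medians that differed by at most 0.041 on the log2 scale and blanks at 11% to 11.3% of probe sets. The absorptive cell markers were bright, with a mean over 8 of the 10 listed genes of 11.63 to 12.41, so that the defining markers of the labelled tissue were present. Vehicle rat 1 stood apart from the other vehicle rats: it was the highest vehicle array for 21 of the 26 tested P450 genes, against 39.4% of all genes, and the highest of all 10 arrays for 7 (26.9%, against 8% of all genes). Patterns of single arrays such as these were picked after the values were seen and were not tested. In bulk tissue, fewer cells of a type and less RNA per cell cannot be told apart.

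Among the drug- and lipid-oxidising members with bright probe sets, no gene passed the test at any dose, and the 200 mg/kg rats differed widely from each other. Cyp3a9, a steroid- and drug-oxidising member of the 3A group, measured 11.34, 11.08 and 11.33 in vehicle, 11.43 and 11.64 at 30 mg/kg, 11.56, 11.58 and 11.85 at 100 mg/kg, and 10.58 and 11.80 at 200 mg/kg. Every array at 30 and 100 mg/kg was above every vehicle array, while 200 mg/kg rat 1 was the lowest of all 10. Cyp2j4, an arachidonic acid oxidase known from rat small intestine, measured 10.91, 10.65 and 10.54 in vehicle, 10.95 and 11.32 at 30 mg/kg, 10.92, 10.89 and 11.05 at 100 mg/kg, and 9.45 and 10.65 at 200 mg/kg. Again 200 mg/kg rat 1 was lowest, by 1.09 below the next array. Cyp4f5, one of the fatty acid and leukotriene hydroxylases, measured 9.87, 9.19 and 9.12 in vehicle, 9.23 and 10.22 at 30 mg/kg, 9.62, 9.69 and 10.13 at 100 mg/kg, and 7.35 and 9.50 at 200 mg/kg. The lowest array was 1.78 below the next, and 200 mg/kg rat 2 was 4.44-fold above 200 mg/kg rat 1.

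**Figure D1:**
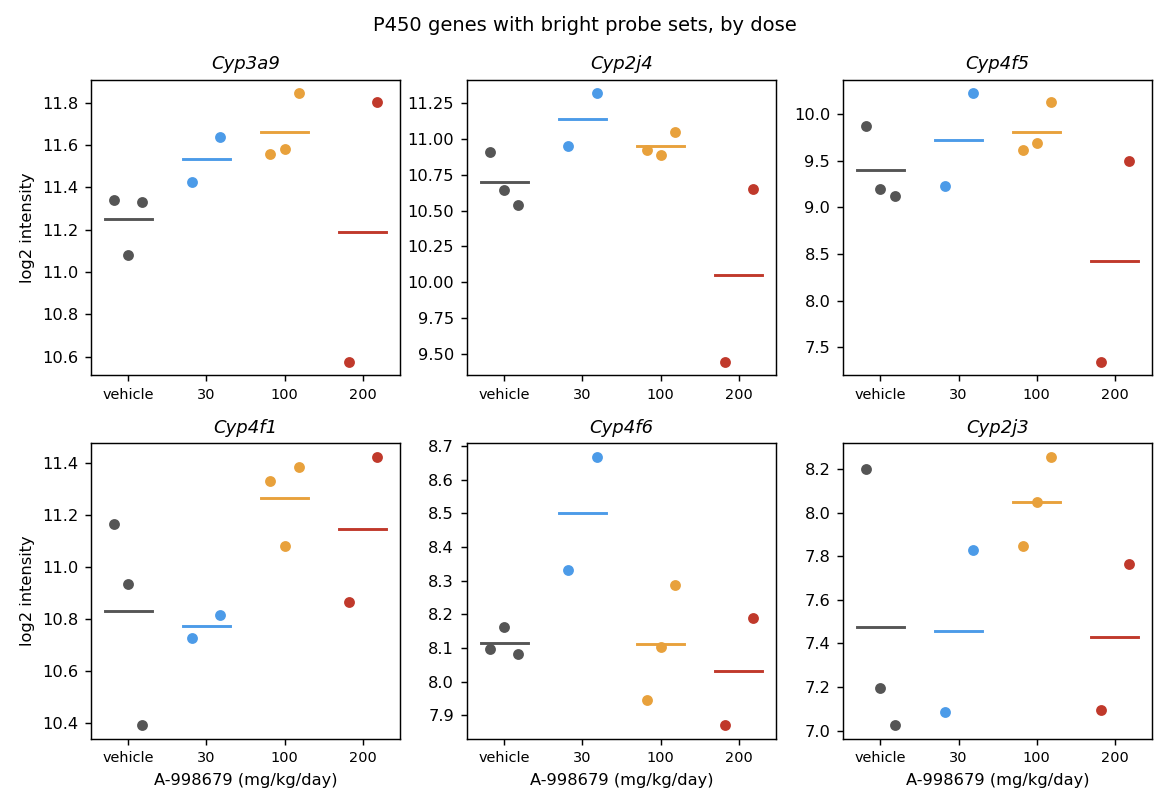
Log2 intensity of 6 P450 genes (vertical axes, different ranges that do not start at 0) by daily dose of A-998679, with 1 point per rat and a bar at the group mean. For Cyp3a9, Cyp2j4 and Cyp4f5, 1 of the 2 rats at 200 mg/kg lies below every other array, at 10.58, 9.45 and 7.35.

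The promoters of 4 of these bright members are shown because in 3 of them 200 mg/kg rat 1 lay well below all other arrays, while in Cyp4f1, of the same group as Cyp4f5, it did not. Promoter sequences of 39 of the 49 genes, 23 of them tested, were matched by gene identifier in RefSeq (GRCr8), each running from 250 bases before to 50 after the gene's start. Capitals mark GCGTG, the core of the element that the aryl hydrocarbon receptor and its partner bind, and AGTTCA, a half-site of nuclear receptors such as the pregnane X receptor, each on either strand and with no overlap between them. The Cyp3a9 window is chr12:21960111-21960410 (minus strand), that of Cyp2j4 is chr5:116322993-116323292 (minus), that of Cyp4f1 is chr7:12672504-12672803 (minus) and that of Cyp4f5 is chr7:12194387-12194686 (plus).
Cyp3a9: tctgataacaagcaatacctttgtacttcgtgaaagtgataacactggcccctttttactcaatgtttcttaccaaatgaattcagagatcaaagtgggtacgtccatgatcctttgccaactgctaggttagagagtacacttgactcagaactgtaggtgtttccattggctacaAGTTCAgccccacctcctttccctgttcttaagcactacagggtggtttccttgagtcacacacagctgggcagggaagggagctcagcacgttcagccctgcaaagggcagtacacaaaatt
Cyp2j4: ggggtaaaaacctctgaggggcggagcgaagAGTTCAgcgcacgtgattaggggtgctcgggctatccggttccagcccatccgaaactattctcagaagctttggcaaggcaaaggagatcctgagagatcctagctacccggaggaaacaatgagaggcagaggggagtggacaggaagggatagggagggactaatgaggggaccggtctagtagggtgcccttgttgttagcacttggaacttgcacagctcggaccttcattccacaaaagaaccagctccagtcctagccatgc
Cyp4f1: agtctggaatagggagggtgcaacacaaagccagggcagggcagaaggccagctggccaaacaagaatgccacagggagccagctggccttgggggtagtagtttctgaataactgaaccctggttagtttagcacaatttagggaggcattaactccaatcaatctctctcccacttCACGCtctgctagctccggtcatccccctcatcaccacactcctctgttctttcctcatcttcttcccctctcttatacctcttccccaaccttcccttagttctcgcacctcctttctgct
Cyp4f5: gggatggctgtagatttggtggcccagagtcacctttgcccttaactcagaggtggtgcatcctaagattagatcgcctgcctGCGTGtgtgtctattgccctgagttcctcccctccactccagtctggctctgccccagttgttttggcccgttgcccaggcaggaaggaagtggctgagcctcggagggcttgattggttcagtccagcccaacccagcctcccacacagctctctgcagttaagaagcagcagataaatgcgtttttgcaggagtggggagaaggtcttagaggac

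AGTTCA occurred once each in the Cyp3a9 and Cyp2j4 windows, and GCGTG once each in those of Cyp4f1 and Cyp4f5. Over all genes, 31.1% of 27457 promoters held GCGTG, against 8 of the 39 P450 promoters (20.5%). AGTTCA was in 14.4% of all promoters and in 12 of the 39 (30.8%), the tested carriers being Cyp27a1, Cyp2c13, Cyp2j3, Cyp2j4, Cyp3a18, Cyp3a9 and Cyp4a3. Both motifs were picked after matches to 10 short motifs had been counted, and a match is a description of letters only. In the GRCr8 gene order Cyp2j4 lies next to Cyp2j3, Cyp4f1 next to Cyp4f6 and Cyp4a1 between Cyp4a3 and Cyp4b1.

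The spread at 200 mg/kg differed within families. Rat 1 of that dose was the lowest of the 10 arrays for 5 of the 26 tested genes (19.2%), namely Cyp2d4, Cyp2j4, Cyp3a9, Cyp4f5 and Cyp4f6, against 9.81% of all genes. For Cyp2d4, a drug-oxidising enzyme also known from brain, the gap was small: it measured 8.79 there against 8.86 on the next lowest array. Cyp4f6 had 7.87 there against 7.95 on the next lowest, so for both genes that array was only just below the others. Cyp4f1, a fatty acid hydroxylase of the same group as Cyp4f5, was not lowest there: it measured 11.16, 10.93 and 10.39 in vehicle, 10.73 and 10.82 at 30 mg/kg, 11.33, 11.08 and 11.38 at 100 mg/kg, and 10.87 and 11.42 at 200 mg/kg. Each dose overlapped vehicle. Probe set 1371076_at, which the annotation assigns to more than 1 P450 gene and which was therefore no member, measured 7.39 in 200 mg/kg rat 1, below 8.83 to 9.88 elsewhere. The absorptive cell list had a mean of 11.73 in this rat against 12.41 in 200 mg/kg rat 2, but it was lower still, at 11.63, in vehicle rat 3, where Cyp2j4 and Cyp4f5 measured 10.54 and 9.12. Of its 8 genes, Alpi, Fabp2 and Apoa4 were lowest in 200 mg/kg rat 1, and the other 5 were lowest in vehicle rat 3. The electron donor Por was at 8.68 in 200 mg/kg rat 1 against 9.08 to 9.85 on the other 9 arrays. The part of cell content in the Cyp2j4 and Cyp4f5 values was not tested.

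**Figure D2:**
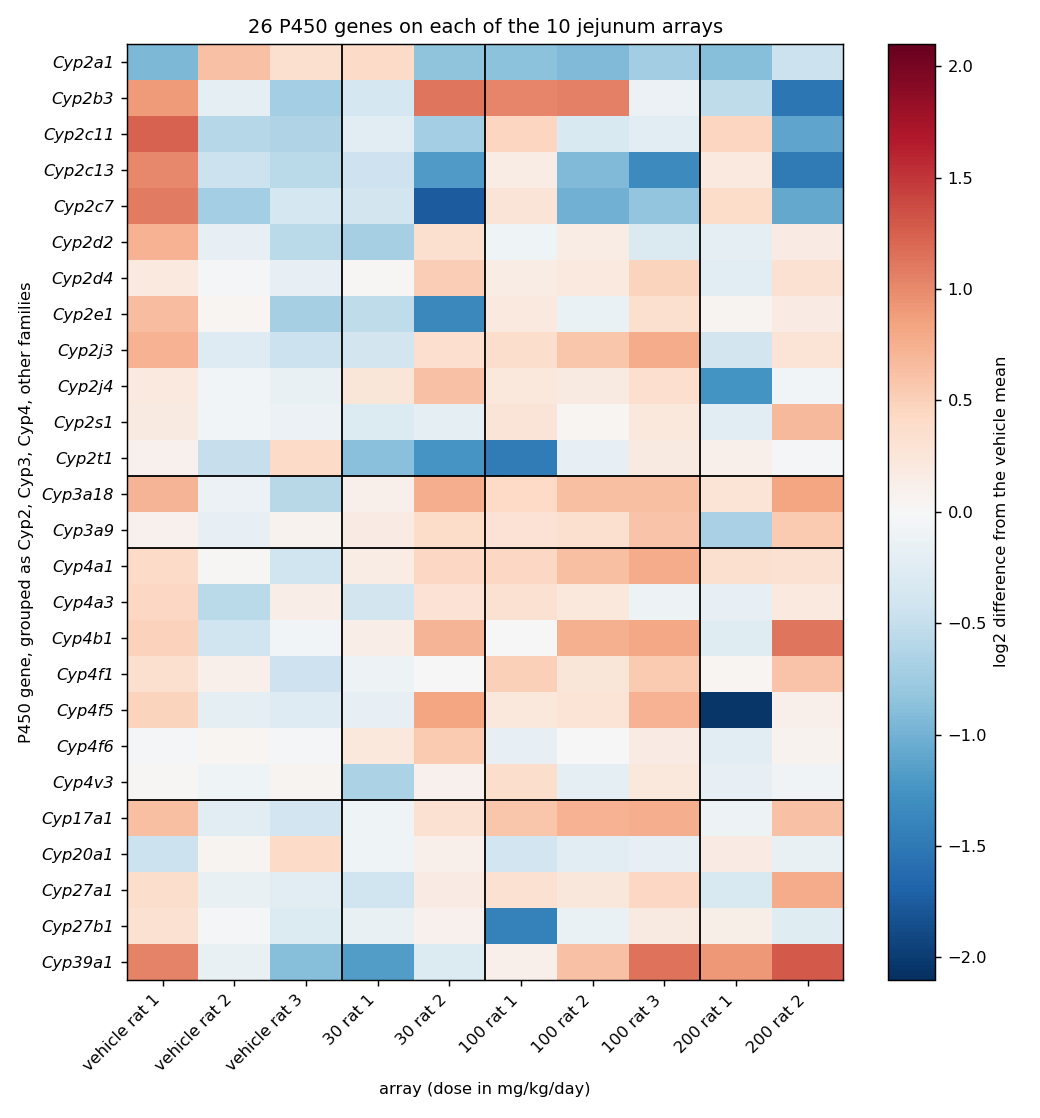
Log2 difference from the mean of the 3 vehicle rats (colour) for the 26 tested P450 genes (rows, in the order Cyp2, Cyp3, Cyp4, other families) on the 10 arrays (columns, dose in mg/kg/day and rat number). Most genes are red in vehicle rat 1, and the darkest blue cell is Cyp4f5 in 200 mg/kg rat 1.

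At 30 mg/kg no member passed the test against vehicle, and Cyp2 genes lay mostly below vehicle. Of 26 tested genes 11 had a higher mean and 15 a lower mean (47.8% and 52.2% of all genes). With limma over all probe sets, 0 members were called higher or lower (0% and 0.0098% of all genes), and the lowest adjusted p of a member was 1. At an unadjusted p of up to 0.05, 0 members were higher (1.66% of all genes) and 2 were lower (3.13%), namely Cyp2e1 and Cyp2t1. The ethanol-oxidising enzyme Cyp2e1 measured 6.42, 5.83 and 5.08 in vehicle and 5.24 and 4.42 at 30 mg/kg, so that the groups overlapped. Its log2 fold change was -0.95 (SE 0.38, 95% interval -1.81 to -0.08), with an unadjusted limma p of 0.0349. Cyp2t1 measured 5.74, 5.15 and 6.04 in vehicle and 4.76 and 4.41 at 30 mg/kg, apart from vehicle, with a log2 fold change of -1.06 (SE 0.45) and an unadjusted limma p of 0.0455. It was the only tested member with both a change of at least 2-fold and groups apart at any dose against vehicle. Of all genes, 0.226% met this in the higher and 0.451% in the lower direction at 30 mg/kg, 0.521% and 1.29% at 100 mg/kg, and 0.727% and 1.12% at 200 mg/kg.

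All arrays at 30 mg/kg were above all vehicle arrays for 3 tested members (7.01% of all genes were so) and below for 2 (11% of all genes). The higher ones were Cyp3a9, Cyp2j4 and Cyp4f6. Cyp4f6, a leukotriene and fatty acid hydroxylase, measured 8.10, 8.16 and 8.08 in vehicle and 8.33 and 8.67 at 30 mg/kg, with a log2 fold change of 0.39 (SE 0.17) and an unadjusted limma p of 0.0510. The vehicle rats were close to each other for this gene. Cyp2j4 had a log2 fold change of 0.44 (SE 0.31) and Cyp3a9 of 0.28 (SE 0.31). The lower ones were Cyp2t1 and Cyp2s1, an epithelial P450 known in human and mouse as a target of the aryl hydrocarbon receptor. Cyp2s1 measured 7.72, 7.47 and 7.41 in vehicle against 7.24 and 7.34. It measured 7.80, 7.58 and 7.75 at 100 mg/kg and 7.29 and 8.21 at 200 mg/kg, where rat 1 was again below vehicle and rat 2 above it. Among the other members with the smallest unadjusted p at this dose, Cyp2c7 had a log2 fold change of -1.07 (SE 0.69) and Cyp39a1 of -0.74 (SE 0.54).

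The 30 mg/kg rats also stood apart in some markers of other cell types. The distal ileum list, 4 of 6 genes, lay at -1.56 and -1.21 relative to the vehicle mean against -0.54 to 0.75 in the vehicle rats. Of its genes, Fabp6 (3.26 and 4.23, against 5.46 to 7.89) and Gcg (3.43 and 3.33, against 5.02 to 7.14) lay below vehicle. Slc10a2 (5.52 and 5.59) lay inside the vehicle range of 5.13 to 6.18. Slc51a (10.36 and 10.82) lay on either side of its vehicle range of 10.52 to 10.64. The lymphocyte list, a mean over 7 of 8 genes of which 4 passed the filter, lay at -0.96 and -1.19 against -0.70 to 0.91. The mesenteric fat list reached 1.56 in 30 mg/kg rat 2. Their part in the P450 values was not tested.

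At 100 mg/kg the members lay mostly above vehicle, and none passed the test on all arrays. The mean was higher for 17 and lower for 9 of 26 genes, against 47.8% and 52.2% of all genes. With limma 0 members were called in either direction (0.0098% of all genes higher, 0% lower), and the lowest adjusted p was 0.219. At an unadjusted p of up to 0.05, Cyp4a1 and Cyp17a1 were higher (2 of 26, against 6.39% of all genes) and 0 members were lower (10.2% of all genes). Cyp4a1, a fatty acid hydroxylase known as a target of the fatty acid receptor PPAR alpha, measured 7.19, 6.81 and 6.37 in vehicle and 7.22, 7.43 and 7.58 at 100 mg/kg. The lowest dosed rat was just above the highest vehicle rat. Its log2 fold change was 0.62 (SE 0.21, 95% interval 0.14 to 1.09), or 1.53-fold, at a limma adjusted p of 0.219. Cyp17a1, the steroid hydroxylase and lyase of androgen synthesis, measured 10.16, 9.31 and 9.12 in vehicle and 10.10, 10.25 and 10.29 at 100 mg/kg, so that vehicle rat 1 lay among the dosed rats. Its log2 fold change was 0.69 (SE 0.29, 95% interval 0.02 to 1.35) at a limma adjusted p of 0.268.

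Vehicle rat 1 decided which members were called at 100 mg/kg. Without it, 3 members passed limma's test: Cyp17a1 with a log2 fold change of 1.00 (adjusted p = 0.0355), Cyp4a1 with 0.82 (adjusted p = 0.0330) and Cyp2a1 with -1.32 (adjusted p = 0.0445). In that fit 4.25% of all genes were called higher and 6.15% lower, beside 7.69% and 3.85% of the 26 members. Cyp2a1, a testosterone hydroxylase known from rat liver, measured 7.12, 8.69 and 8.40 in vehicle, 8.48 and 7.22 at 30 mg/kg, 7.2, 7.14 and 7.33 at 100 mg/kg and 7.18 and 7.63 at 200 mg/kg. It split the 10 rats into a high set of vehicle rats 2 and 3 with 30 mg/kg rat 1, and a lower set that held vehicle rat 1 with all rats at 100 and 200 mg/kg. On all arrays its log2 fold change at 100 mg/kg was -0.85 (SE 0.43). The smooth muscle list, 12 of 12 genes, was at -0.53 in vehicle rat 1, 0.25 and 0.28 in the other vehicle rats, 0.41 and 0.06 at 30 mg/kg, -0.94 to -0.91 at 100 mg/kg and -0.84 to -0.50 at 200 mg/kg. It was thus lower in vehicle rat 1 and at the higher doses, as Cyp2a1 was, but not in 30 mg/kg rat 2, which was low for Cyp2a1. The absorptive cell list lay at 0.20 to 0.37 at 100 mg/kg against -0.27 to 0.19 in vehicle. Whether these contents play a part in the 100 mg/kg differences was not tested.

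**Figure D3:**
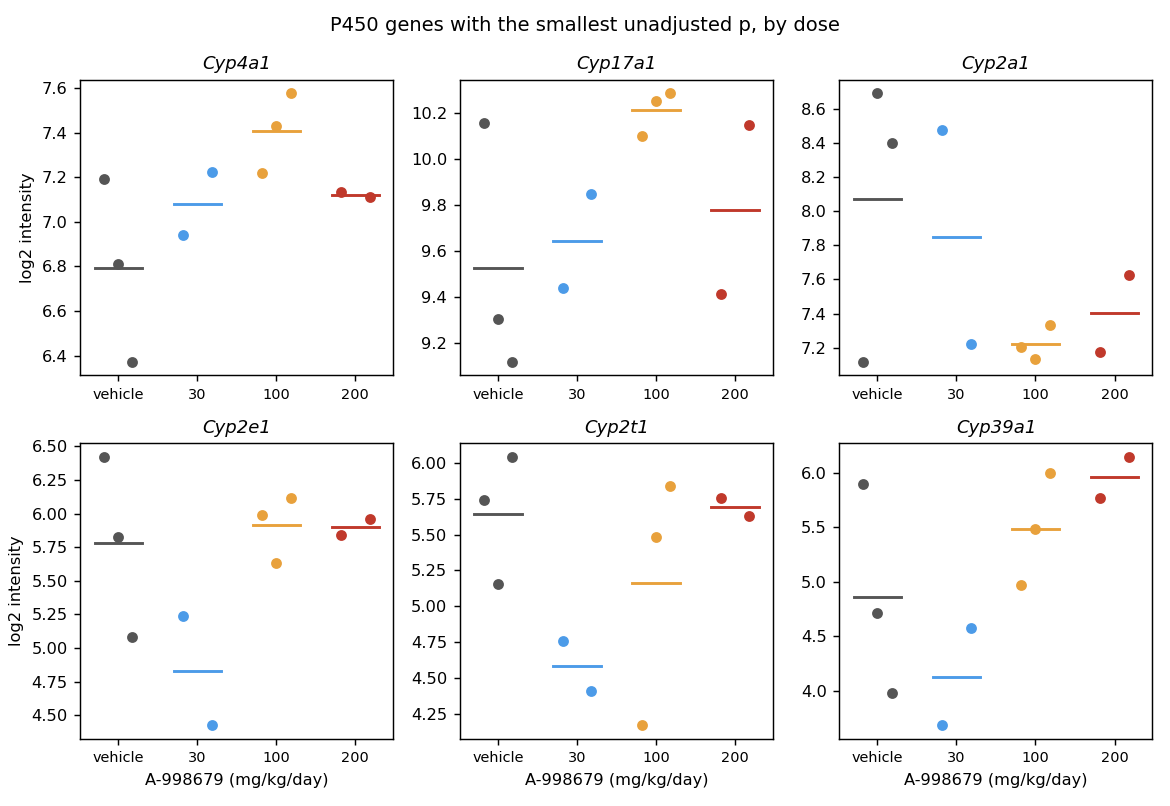
Log2 intensity of 6 P450 genes (vertical axes, different ranges that do not start at 0) by daily dose of A-998679, with 1 point per rat and a bar at the group mean. Cyp4a1 at 100 mg/kg (7.22 to 7.58) lies just above vehicle (6.37 to 7.19), and vehicle rats 2 and 3 are high for Cyp2a1 (8.69 and 8.40).

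Both Cyp4a1 and Cyp3a9 had every array at 100 mg/kg above every vehicle array (2 of 26 tested members, against 10.5% of all genes). Of the tested members, 0 lay wholly below vehicle (15.6% of all genes). Cyp3a9 had a log2 fold change of 0.41 (SE 0.28), and it was the only tested member past the threshold of the methods' t-test at this dose, before adjustment. The study's methods list that t-test among general statistics, while its arrays were judged by Rosetta Resolver's error model, which was not run here. The next members by unadjusted p were Cyp4f1 with 0.43 (SE 0.23), Cyp3a18 with 0.56 (SE 0.33) and Cyp2j3 with 0.58 (SE 0.34). Cyp3a18, a steroid hydroxylase of the 3A group, measured 10.15, 9.31 and 8.85 in vehicle, 9.54 and 10.20 at 30 mg/kg, 9.86, 10.07 and 10.07 at 100 mg/kg, and 9.72 and 10.26 at 200 mg/kg. Vehicle rat 1 lay above all 3 rats at 100 mg/kg. The lipid oxidase Cyp2j3, neighbour of Cyp2j4, measured 8.20, 7.2 and 7.02 in vehicle and 7.85, 8.05 and 8.26 at 100 mg/kg, again with vehicle rat 1 among the dosed rats. Cyp4b1, which oxidises fatty acids and some lung toxins, measured 10.08, 9.19 and 9.54 in vehicle, 9.74 and 10.31 at 30 mg/kg, 9.60, 10.36 and 10.42 at 100 mg/kg, and 9.35 and 10.73 at 200 mg/kg. These groups overlapped at every dose. Cyp2j3 was read by a further probe set whose log2 fold change at 30 mg/kg was 0.48, against -0.02 on the brighter one, while at 100 mg/kg both were positive (0.36 and 0.58).

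At 200 mg/kg no tested member lay wholly above or below vehicle, and their means were evenly divided, 13 higher and 13 lower (47.1% and 52.9% of all genes). The background for groups apart was 11.5% of all genes higher and 14.6% lower. With limma 0 members were called in either direction (0.0098% and 0.0196% of all genes), the lowest adjusted p being 0.437, and 0 had an unadjusted p of up to 0.05 (4.72% of all genes higher, 7.16% lower). Cyp2j4 had a log2 fold change of -0.65 (SE 0.31, 95% interval -1.36 to 0.06), and without 200 mg/kg rat 1 it was -0.05. Cyp4f5 had -0.97 (SE 0.57), which turned to 0.10 without that rat. Cyp39a1, an oxysterol hydroxylase of bile acid synthesis, had the largest difference in the positive direction, 1.09 (SE 0.54, 95% interval -0.13 to 2.32). It measured 5.90, 4.72 and 3.98 in vehicle, 3.68 and 4.57 at 30 mg/kg, 4.97, 5.49 and 6.0 at 100 mg/kg, and 5.77 and 6.15 at 200 mg/kg, with vehicle rat 1 within the range of the rats at 100 and 200 mg/kg. Cyp2b3 had -1.02 (SE 0.62), Cyp3a18 had 0.56 (SE 0.37) and Cyp4a1 had 0.33 (SE 0.24).

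Between the higher doses, the means of all 7 Cyp4 genes were lower at 200 than at 100 mg/kg, and no member passed the test. Rat 2 of 200 mg/kg did not share this direction throughout. It lay above the 100 mg/kg mean for Cyp4b1 (10.73 against 10.13), Cyp4f1 (11.42 against 11.26), Cyp4f6 (8.19 against 8.11) and Cyp4a3 (6.67 against 6.60). For Cyp4a1, Cyp4f5 and Cyp4v3 that rat lay below it. Over all members 9 means were higher and 17 lower (52.7% and 47.3% of all genes). With limma 0 members were called (0.00981% of all genes higher, 0.0196% lower), and the lowest adjusted p was 0.654. At an unadjusted p of up to 0.05, 3 members were lower (3.57% of all genes), namely Cyp2j4, Cyp2b3 and Cyp4f5, and 0 were higher (2.76%). Their log2 fold changes were -0.91 (SE 0.31) for Cyp2j4, -1.67 (SE 0.62) for Cyp2b3 and -1.39 (SE 0.57) for Cyp4f5. Without 200 mg/kg rat 1 the differences of Cyp2j4 and Cyp4f5 were -0.31 and -0.32. Cyp2b3, a relative of the phenobarbital-inducible P450s, measured 6.23, 5.16 and 4.64 in vehicle, 4.98 and 6.47 at 30 mg/kg, 6.37, 6.40 and 5.22 at 100 mg/kg, and 4.82 and 3.83 at 200 mg/kg. Here rat 2 rather than rat 1 was the lower at 200 mg/kg. The groups were apart for 5 tested members lower at 200 mg/kg (13.8% of all genes), which were Cyp2j4, Cyp2b3, Cyp4f5, Cyp2j3 and Cyp4a1. For 1 tested member they were apart and higher (15.2%), the orphan P450 Cyp20a1 with 7.2 and 6.87 against 6.63, 6.82 and 6.86. Of these, Cyp2b3 and Cyp4f5 were at least 2-fold lower (2 members, against 0.678% of all genes), and 0 were 2-fold higher (0.481%). The comparisons with vehicle share the vehicle rats, and this one shares its rats with them.

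Over the 3 doses together, limma's F test called 0 of 26 members (0.0589% of all genes), the lowest adjusted p being 0.313. At an unadjusted p of up to 0.05 it listed 1 member, Cyp2j4 (unadjusted limma p 0.0461), or 3.85% against 15% of all genes.

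**Figure D4:**
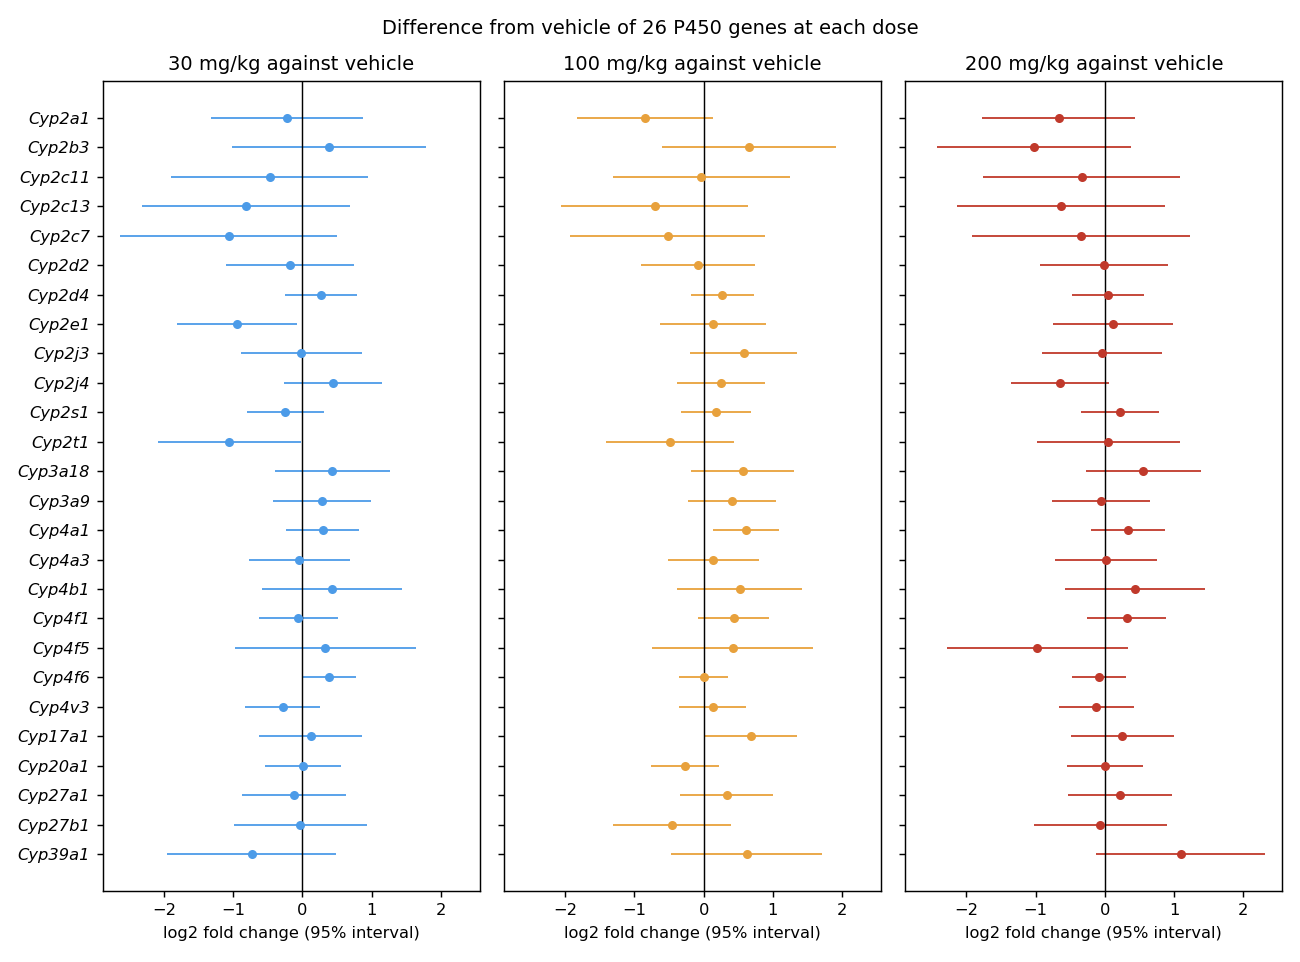
Log2 fold change against vehicle (horizontal axis, points) with its 95% interval from limma (lines) for the 26 tested P450 genes at 30, 100 and 200 mg/kg. Most intervals cross 0, and the unadjusted intervals that do not are those of Cyp2e1 and Cyp2t1 at 30 mg/kg and of Cyp4a1 and Cyp17a1 at 100 mg/kg.

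By subfamily, on all arrays, Cyp3 and Cyp4 had higher medians than Cyp2 at each dose, a difference that was not tested. The median log2 fold change of the 12 Cyp2 genes was -0.23, 0.05 and -0.19 at 30, 100 and 200 mg/kg. Without vehicle rat 1 these were -0.01, 0.32 and 0.18, so that the direction at 200 mg/kg turned. The medians were 0.36, 0.49 and 0.25 for Cyp3, which rests on Cyp3a9 and Cyp3a18 alone, and 0.29, 0.42 and 0.02 for the 7 Cyp4 genes. The other families had medians of -0.03, 0.33 and 0.23. Over all members they were -0.04, 0.22 and -0.01, beside -0.01, -0.02 and -0.02 over all genes tested. At 100 mg/kg 6 of 7 Cyp4 means and 2 of 2 Cyp3 means were higher than vehicle (47.8% of all genes). At 30 mg/kg 9 of 12 Cyp2 means were lower (52.2% of all genes).

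Single rats moved these medians as far as the doses did. The median difference from the vehicle mean over the Cyp4 genes was 0.40 in vehicle rat 1, -0.08 and -0.06 in the other vehicle rats, -0.10 and 0.43 at 30 mg/kg, 0.31, 0.25 and 0.55 at 100 mg/kg, and -0.18 and 0.21 at 200 mg/kg. Vehicle rat 1 thus lay within the range of the 100 mg/kg rats. For Cyp2 the same quantity was 0.68 in vehicle rat 1, above all 9 other arrays, which ran from -0.46 to 0.22. For Cyp3 it was 0.40, -0.15 and -0.25 in vehicle, 0.14 and 0.58 at 30 mg/kg, 0.37, 0.48 and 0.62 at 100 mg/kg, and -0.19 and 0.69 at 200 mg/kg. At 200 mg/kg rat 1 lay between vehicle rats 2 and 3, and rat 2 was the highest of all 10 arrays. Without 200 mg/kg rat 1 the Cyp3 median at that dose was 0.69, and without rat 2 it was -0.19.

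Of the 6 Cyp2c members, the 3 that were tested, Cyp2c11, Cyp2c7 and Cyp2c13, were highest in the 3 rats with the highest hepatocyte markers, which belong to 3 different groups. The hepatocyte list holds mostly genes for secreted plasma proteins, with 8 of 12 above the filter. Its mean difference from the vehicle mean was 1.19, -0.50 and -0.69 in vehicle, -0.52 and -1.23 at 30 mg/kg, 0.24, -1.25 and -1.21 at 100 mg/kg, and 0.28 and -1.41 at 200 mg/kg, so that rat 1 of vehicle, of 100 mg/kg and of 200 mg/kg were the highest. Albumin (Alb) measured 11.43, 10.74 and 10.75 in these 3 rats and 6.41 to 10.00 in the other 7. The urea cycle enzyme Cps1, which the intestine also makes, lay at 11.71 to 12.12 on all arrays. This order of arrays was not particular to the hepatocyte list. The same 3 rats had the highest means of the distal ileum list (0.75, 0.58 and 0.21, against -1.56 to -0.15 in the others). No single ileum gene on the array had these 3 rats on top. Gcg was highest in 100 mg/kg rat 3, Slc10a2 in 200 mg/kg rat 2 and Slc51a in 30 mg/kg rat 2. Fabp6 had 6.67 in vehicle rat 2 against 5.82 in 200 mg/kg rat 1. These 3 rats also had the highest means of the lymphocyte list (0.91, 1.13 and -0.05, against -1.19 to -0.16). Its genes differed too: Cd3g had 9.08 in vehicle rat 3 against 8.39 in 100 mg/kg rat 1.

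Cyp2c11, the main male-specific P450 of rat liver, measured 7.14, 5.31 and 5.27 in vehicle, 5.67 and 5.19 at 30 mg/kg, 6.35, 5.59 and 5.68 at 100 mg/kg, and 6.35 and 4.79 at 200 mg/kg. Cyp2c7, a retinoid-oxidising liver P450, measured 7.16, 5.34 and 5.69 in vehicle, 5.68 and 4.31 at 30 mg/kg, 6.33, 5.06 and 5.24 at 100 mg/kg, and 6.45 and 4.99 at 200 mg/kg. For both genes the highest 3 arrays were the 3 with the highest hepatocyte score. Cyp2c13, a further male-specific liver P450 read by a probe set that its suffix marks as shared between transcripts, measured 6.74, 5.28 and 5.16 in vehicle, 5.29 and 4.54 at 30 mg/kg, 5.88, 4.80 and 4.38 at 100 mg/kg, and 5.94 and 4.25 at 200 mg/kg, with the same 3 arrays on top. These 3 genes were 11.5% of tested members, against 1.13% of all genes with those arrays highest. Among members below the filter, Cyp3a2, a steroid hydroxylase of male rat liver, had a value on 5 arrays only, and its 3 highest, 5.57, 4.33 and 4.61, were in the same rats. The 3 Cyp2c members below the filter did not share this order: Cyp2c12 was highest in vehicle rat 2 (3.92), Cyp2c23 had 5.23 in vehicle rat 3 against 4.5 in 200 mg/kg rat 1, and Cyp2c6v1 had 4.65 in 30 mg/kg rat 2 against 3.84 and 3.27 in rat 1 of 100 and of 200 mg/kg. The part of liver-type RNA, or of the ileum and lymphocyte contents, in these and the other members was not tested.

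**Figure D5:**
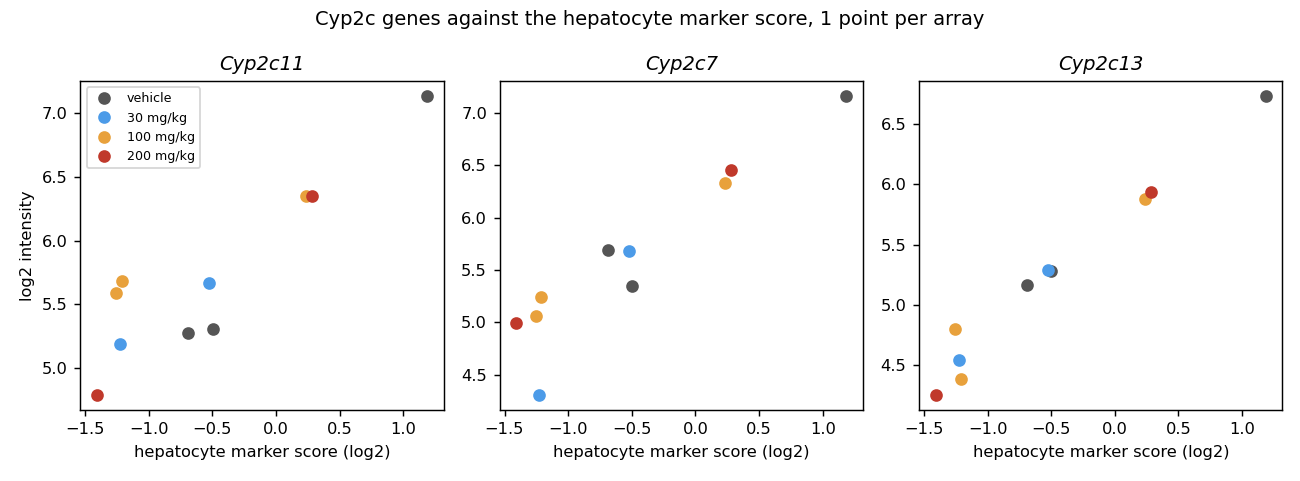
Log2 intensity of Cyp2c11, Cyp2c7 and Cyp2c13 (vertical axes, different ranges that do not start at 0) against the mean log2 difference from vehicle of the hepatocyte markers (horizontal axis), 1 point per array, coloured by dose. The array at the upper right of each panel is vehicle rat 1, with a score of 1.19, and 1 array each of 100 and 200 mg/kg follows at 0.24 and 0.28.

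Of the rat P450s that the study also tested as recombinant enzymes, 7 were members under the same name, and Cyp2c6v1 and Cyp3a23-3a1 carry symbols related to another 2. On all arrays 0 of the 5 that were tested were called at any dose, and Cyp2a1 was called at 100 mg/kg without vehicle rat 1. Besides Cyp2a1, Cyp2c11, Cyp2c13, Cyp2e1 and Cyp3a2, these were Cyp2d2 and Cyp2c12. Cyp2d2, the debrisoquine-oxidising P450 of rat liver, measured 7.28, 6.37 and 5.99 in vehicle, 5.86 and 6.88 at 30 mg/kg, 6.45, 6.71 and 6.24 at 100 mg/kg, and 6.34 and 6.72 at 200 mg/kg, with all doses inside the vehicle range but for 30 mg/kg rat 1. Its log2 fold changes of -0.18, -0.08 and -0.02 had SEs of 0.36 to 0.41, with a 95% interval of -1.11 to 0.74 at 30 mg/kg. Cyp2c12, the female-specific liver P450, was below the filter, with a mean of 2.55, as were Cyp3a2, Cyp2c6v1 and Cyp3a23-3a1.

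Among the members that act on sterols, steroids and vitamins, Cyp17a1 was bright while the other steroid-synthesis genes were not. Cyp11a1, which starts steroid synthesis, had a mean of 3.91 with 4 blanks, and Cyp11b1 and Cyp21a1, enzymes of adrenal steroid synthesis, had means of 3.02 and 3.22, all below the filter. Of the steroidogenic cell markers, 0 of 3 on the array passed the filter. Cyp27a1, the sterol side-chain hydroxylase of bile acid synthesis, measured 7.42, 6.89 and 6.82 in vehicle, 6.62 and 7.22 at 30 mg/kg, 7.37, 7.29 and 7.48 at 100 mg/kg, and 6.73 and 7.82 at 200 mg/kg. The doses overlapped vehicle throughout. Cyp27b1, which activates vitamin D, had a mean of 4.98, just above the filter at 4.89, and log2 fold changes of -0.03, -0.46 and -0.06. The vitamin D receptor Vdr, one of the sensors of P450 genes, had a log2 fold change of 1.35 (SE 0.52) at 100 mg/kg and measured 7.34, 6.93 and 5.46 in vehicle against 8.17, 7.29 and 8.33, so that its groups overlapped.

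The remaining tested members had small differences. Cyp4a3, a fatty acid hydroxylase next to Cyp4a1, had log2 fold changes of -0.04, 0.14 and 0.02 at 30, 100 and 200 mg/kg. Cyp4v3, whose human relative hydroxylates fatty acids in the eye, had -0.29, 0.13 and -0.12. Cyp2d4 had 0.27, 0.27 and 0.04, and Cyp20a1 had 0.01, -0.26 and 0.01. None of these had an unadjusted p of up to 0.05 against vehicle.

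The other 23 members did not pass the filter and were not tested. Their means ran from 0.49 to 4.73, and 10 of them lacked a value on at least 1 array. Among them were the bile acid enzymes Cyp7a1 (mean 3.93), Cyp7b1 and Cyp8b1, the aromatase Cyp19a1 (mean 4.73), the retinoic acid hydroxylase Cyp26a1 (mean 4.57), and Cyp2a3, Cyp2f4 and Cyp2g1, which are known from lung or nasal tissue. The others were Cyp2b12, Cyp2b21, Cyp2c6v1, Cyp2c23, Cyp2j10, Cyp2u1, Cyp3a23-3a1, Cyp4a8, Cyp4f4 and Cyp4f17. That these genes were not tested is no sign that there was no difference. Some lay wholly beyond vehicle at low signal. Cyp2c23 had 3.55 and 3.53 at 30 mg/kg against 5.08 to 6.30 in vehicle. Cyp2u1 had 3.90 and 3.72 at 200 mg/kg against 4.65 to 5.19. In the other direction, Cyp11a1 had 4.12 and 4.43 at 30 mg/kg against 3.29 to 4.03. When the fit was run with no filter, limma called 0 members in each comparison.

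Of the sensors that control P450 genes, 15 of 20 listed were tested, and 0 were called by limma in any comparison. At 100 mg/kg, Vdr and Ahr were higher and Cebpa was lower at an unadjusted p of up to 0.05 (6.39% of all genes higher, 10.2% lower). The aryl hydrocarbon receptor Ahr measured 4.73 and 4.79 in vehicle rats 1 and 2 and was blank in vehicle rat 3, which the fit dropped, against 5.82, 5.24 and 5.94 at 100 mg/kg, a log2 fold change of 0.91 (SE 0.35). It was 4.22 and 3.44 at 30 mg/kg and 4.84 and 5.74 at 200 mg/kg. Against vehicle rats 1 and 2 alone, it lay lower at the lowest dose and higher at the other doses. The vehicle and 30 mg/kg values were below the filter level of 4.89, and the blank of vehicle rat 3 had no part in these directions. Cebpa, a factor of epithelial and liver gene expression, measured 9.20, 9.29 and 9.37 in vehicle. It was below that range on all arrays at 30 mg/kg (9.17 and 9.05), at 100 mg/kg (8.91, 8.94 and 8.94) and at 200 mg/kg (8.99 and 8.81). Of all genes, 11%, 15.6% and 14.6% lay wholly below vehicle at these doses. The log2 fold changes of Cebpa were -0.18 (SE 0.13) at 30 mg/kg, and -0.35 (SE 0.11) and -0.39 (SE 0.13) at 100 and 200 mg/kg. The limma adjusted p at 100 and 200 mg/kg were 0.212 and 0.299. Ahr had -0.93 (SE 0.38) at 30 mg/kg, again without vehicle rat 3. It was the only sensor with an unadjusted p of up to 0.05 at that dose (3.13% of all genes lower). The next sensors by unadjusted p were Hnf4a with -0.26 and Cebpb with 0.29 at 30 mg/kg, and Vdr with 1.25 and Nr1h3, an oxysterol receptor, with -0.23 at 200 mg/kg. The pregnane X receptor Nr1i2, which controls Cyp3a genes, measured 8.19, 8.0 and 6.94 in vehicle and 7.44 to 8.23 in the dosed rats, overlapping throughout.

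Of the electron donor and haem supply genes, 15 of 18 listed were tested, and 0 were called. The median log2 fold change was -0.12, 0.17 and 0.05 at 30, 100 and 200 mg/kg, with 12 of 15 means higher at 100 mg/kg (47.8% of all genes). Cytochrome b5 (Cyb5a), which passes electrons to several P450s, measured 10.69, 9.99 and 9.66 in vehicle and 10.84, 10.68 and 10.78 at 100 mg/kg, a log2 fold change of 0.66 (SE 0.25). As for Cyp17a1, vehicle rat 1 lay among the dosed rats. Cyb5b, its mitochondrial form, had -0.50 (SE 0.21) at 30 mg/kg, where both arrays (8.61 and 8.37) lay below vehicle (8.87 to 9.14). Ferredoxin Fdx1, the donor of mitochondrial P450s, had 0.32 (SE 0.15) at 100 mg/kg, and Fech, which inserts iron into haem, had -0.42 (SE 0.22) at 30 mg/kg. The haem oxygenase Hmox2 had -0.28 at 30 mg/kg and the haem synthesis enzyme Alad had -0.32 at 100 mg/kg. At 200 mg/kg the smallest unadjusted p were those of the haem synthesis enzyme Cpox with 0.35, Fdx1 with 0.32 and Cyb5a with 0.52.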

How the data were processed

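Total jejunal RNA of 10 rats was hybridised to Affymetrix rat arrays, 1 per rat, and the authors processed the scans in Rosetta Resolver. The deposited value table holds log10 intensities per probe set, already normalized by the authors. They were multiplied to log2, blanks were left missing, and the deposited table of the authors' fold changes per rat was not used. Probe sets in the dimmest 40% by their mean were left out, which kept 17736 probe sets (10220 genes). Groups were compared with limma 3.58.1 (R 4.3.3), with 1 mean per group over all 10 arrays and Benjamini-Hochberg adjustment over all probe sets, at an adjusted p of up to 0.05 (two-sided). The fit was tested on simulated data. The number of arrays limits the precision. The limma p-values set a group difference against the spread between rats, estimated over all groups together.

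The members, lists and tests were chosen with earlier results of these data known. Genes described with values were the 12 brightest, any called, the 6 smallest unadjusted p per dose, members with at least a 2-fold change and groups apart, those in the study's enzyme panel and, for these genes, further probe sets of other direction, besides the 3 smallest p per dose in each of the 2 pathway lists. Others were named for completeness. Alternatives were the filter, blanks at a floor, an offset, array scaling, array weights, a replicate block, the mean of probe sets, the methods' t-test and leaving out each rat.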

Additional observations from a re-analysis of the deposited data

Results flagged for a closer look

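Probe set 1370377_at, which the annotation assigns to more than 1 P450 gene and which no comparison of the report used, had a higher signal at 200 mg/kg than in any vehicle rat. Its lowest value at 200 mg/kg was 6.41 and the other was 6.55, against 6.12 as the highest of the vehicle rats, which ran from 3.72 to 6.12. The values at 30 mg/kg were 4.37 and 6.02, and those at 100 mg/kg were 5.88, 5.03 and 3.95. Of all genes, 11.5% had every array at 200 mg/kg above every vehicle array. The probe set was found by looking for higher values only, at each dose, among probe sets above the filter that name several P450 genes. The difference was not tested for its cause, and the gene cannot be told from the annotation.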

How the results depend on the processing

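The count of members called was 0 in the 4 comparisons and in the F test under every alternative run, except at 100 mg/kg. There it was 3 with array weights (Cyp17a1 at 0.86, Cyp4a1 at 0.62 and Cyp2a1 at -1.29, with limma adjusted p of 0.0249, 0.0277 and 0.0268), and 1 with the methods' t-test at their threshold, with 0 after adjustment. Array weights gave vehicle rat 1 a weight of 0.328, and 8.37% of all genes were then called higher and 9.55% lower. Leaving out 1 rat at a time gave counts of 0 to 3 at 100 mg/kg, the 3 being without vehicle rat 1. The Cyp4 median at 200 mg/kg was 0.31 with the mean of all probe sets of a gene. The Cyp2 median at 200 mg/kg turned to 0.11 with array weights. With 1 rat left out, the Cyp2 median ran from -0.46 to -0.01 at 30 mg/kg, from -0.25 to 0.32 at 100 mg/kg and from -0.40 to 0.18 at 200 mg/kg, the highest value at each dose being without vehicle rat 1. Likewise the Cyp3 median at 200 mg/kg ran from -0.19 to 0.69, the Cyp4 median at 30 mg/kg from -0.10 to 0.43, and that of the other families at 200 mg/kg from 0.11 to 0.62. Cyp4f5 at 200 mg/kg ran from -2.05 to 0.10 and turned without 200 mg/kg rat 1. The causes were not tested. Of the named genes' values under alternatives, 385 kept their direction and side of the threshold, 6 passed it and 1 turned.

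Rat numbers name different animals. Same-numbered rats of different groups had correlations of their deviations from the group mean of -0.306 to 0.238 over 13 pairs, 4 of them above 0. In a group of 2 rats these deviations mirror each other. The pairs of 30 with 200 mg/kg rats therefore share 1 value, 0.238, and the 13 pairs are not separate evidence. Of 10 arrays, 3 correlated best with their own number. A replicate block left 0 members called in each comparison. Members below the filter were not tested, some tested members lay just above it, and the number of arrays limits what could be seen.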
